A study of Mus musculus with 6 samples.

Results

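Lysosomal genes were described in mouse RPE/choroid, which is the retinal pigment epithelium (RPE), the pigmented cell layer behind the photoreceptors, along with the choroid, the vascular layer beneath it. The genes were picked by name from a list of 36 symbols that covers lysosomal hydrolases, their helper proteins and lysosomal membrane proteins, with cathepsins and the proton pump left out. Of these symbols, 35 named a gene among the 33924 of the table analysed here, and Tfeb was found only under its older symbol Tcfeb, so its value is given apart from the counts. The tissue came from 3 young and 3 aged mice of the C57BL/6J strain, wild type and untreated, and its total RNA was sequenced after depletion of ribosomal RNA. The labels give 1 to 2 months for the young group and, for the aged group, 20 to 24 months in the titles and 22 to 24 months in the time field. The sex given for every library is male, but the study's methods mention both sexes and an older young group, so age and sex carry some doubt. A pair of eyes was used per sample, and nothing in the labels ties a young library to an aged one.

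The lysosome is the acidic compartment in which cells take apart proteins, lipids, glycogen and the sugar chains of glycoproteins and proteoglycans. Soluble hydrolases each remove a particular bond, so that a substrate passes from enzyme to enzyme, while membrane proteins protect the compartment, move ions and let the products out. RPE cells depend on it heavily, because they engulf the shed tips of photoreceptor outer segments every day and digest them in lysosomes. Tissue macrophages are likewise rich in lysosomes, and the bulk tissue studied here holds both.

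For each gene the table holds its mean over the 6 libraries, termed baseMean, with normalized counts as its unit. Beside it stand the estimated log2 difference between the ages, the standard error (SE) of that estimate and an adjusted p, all from the authors' DESeq2 fit. It holds no value per mouse, so the spread between the 3 mice of a group enters only through the SE, and the depth of each library is unknown here. Throughout, a positive log2 fold change is a higher level in aged tissue, a gene is called where its adjusted p is under 0.05, and intervals are 95% intervals computed from the SE. Levels in young and aged tissue are worked out from baseMean and fold change and are termed implied levels. They rest on the same SE and have no spread of their own.

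In aged RPE/choroid, 25 of the 35 lysosomal genes were higher than in young tissue and 0 were lower. The rises were largest for Cd68, Acp5 and Laptm5, at 10.4-fold, 9.35-fold and 4.80-fold, and the median over the 35 genes was a log2 fold change of 0.70, or 1.63-fold. Among all 18636 genes tested, 11.3% were higher in aged tissue and 9.92% were lower, and the median was -0.01. Each of the 35 genes had a baseMean of 338 or more. Acp5, which sets this floor, had an implied level of 65.3 in young and 610 in aged tissue. Among the 9043 genes tested at or above that level, 15.7% were higher and 7.46% lower. Beside the 0 lower calls of DESeq2, 1 lysosomal gene, Smpd1, was lower at an unadjusted p under 0.05. In direction alone, 33 of the 35 were positive, against 49.5% of all genes tested and 63.4% of those at or above the lowest lysosomal baseMean. The median of genes with a baseMean of at least 100 was 0.06. Subtracting it from every gene gave 24 higher and 1 lower lysosomal genes. Over all genes it changed the split, which was 2100 higher against 1849 lower, to 1650 against 2289. Centring on the median of RPE markers, 0.33, an alternative chosen after seeing the data, left 17 lysosomal genes higher and 2 lower, turned 6 uncalled ones from positive to negative and gave a median of 0.37. Over all genes it called 5.06% higher and 34.9% lower. The 8 genes whose call it ended were Scarb2, Asah1, Ids, Arsb, Gaa, Manba, Ppt1 and Grn, with an adjusted p between 0.0622 and 0.583.

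The sizes were graded. A log2 fold change of 2 or more was reached by 3 called genes, 7 lay between 1 and 2, 11 between 0.5 and 1, and 4 below 0.5, down to 0.43 for Gaa. The 10 genes not called lay between -0.30 and 0.40. For 5 of these 10, the interval included 0.5, so that a rise of that size lies within the measurement error. The SE of the lysosomal genes had a median of 0.15. Summed over the 35 genes, the implied level was 100842 normalized counts in young tissue and 189575 in aged tissue, a ratio of 1.88. Psap made up 35.9% of the summed baseMean, and without it the ratio was 1.65. Setting aside the 3 genes at or above 2, a cutoff chosen after the values were seen, 22 of 32 were higher and their median was 0.60.

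**Figure D1:**
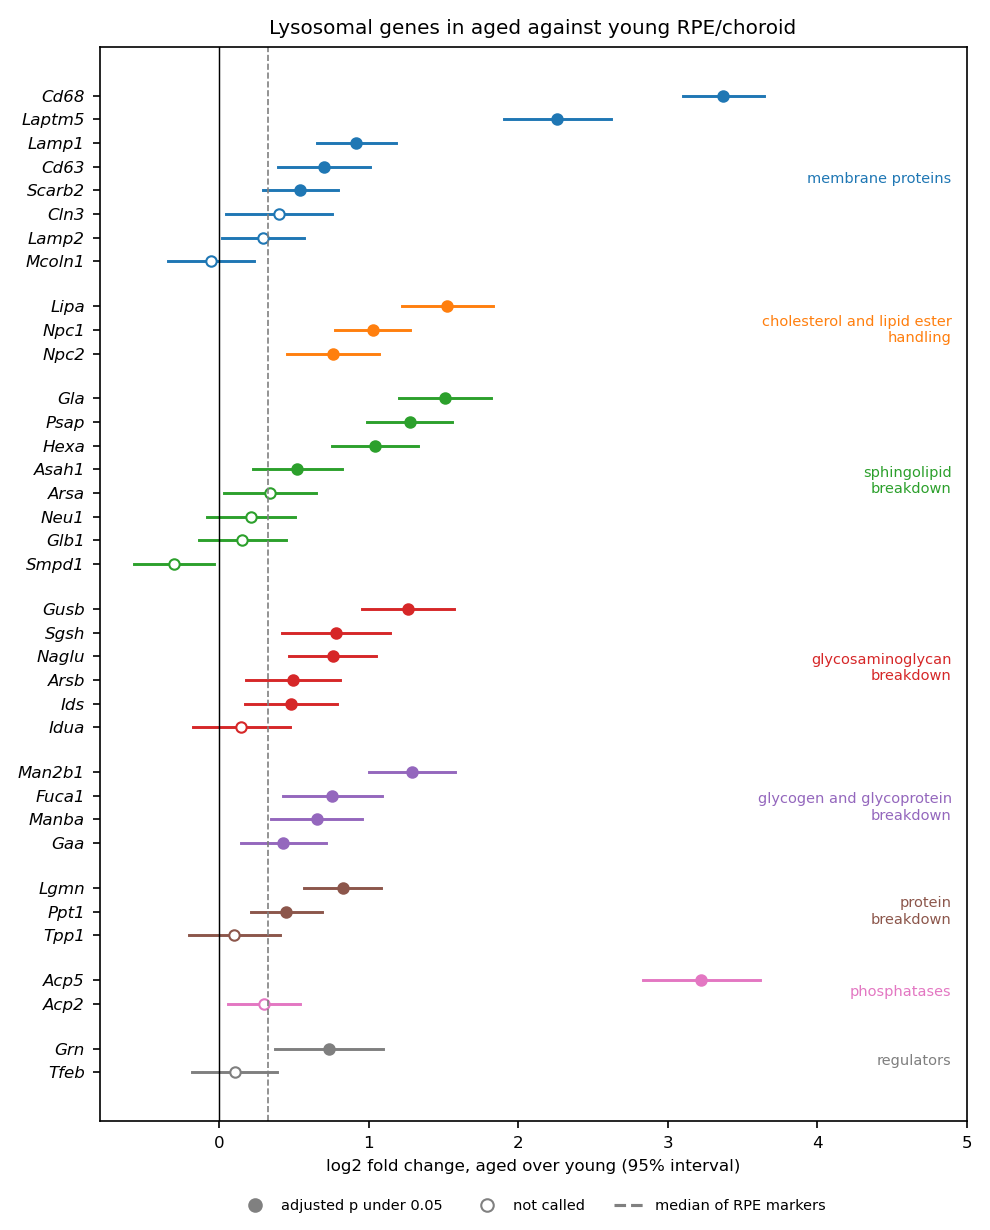
Log2 fold change of each lysosomal gene in aged over young RPE/choroid (x axis), with bars for the 95% interval, grouped and coloured by role. Filled points have an adjusted p under 0.05, and the dashed line is the median of RPE markers, 0.33. The 25 called genes lie to the right of 0, Cd68, Acp5 and Laptm5 farthest, and Mcoln1 and Smpd1 are the genes to its left.

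**Figure D2:**
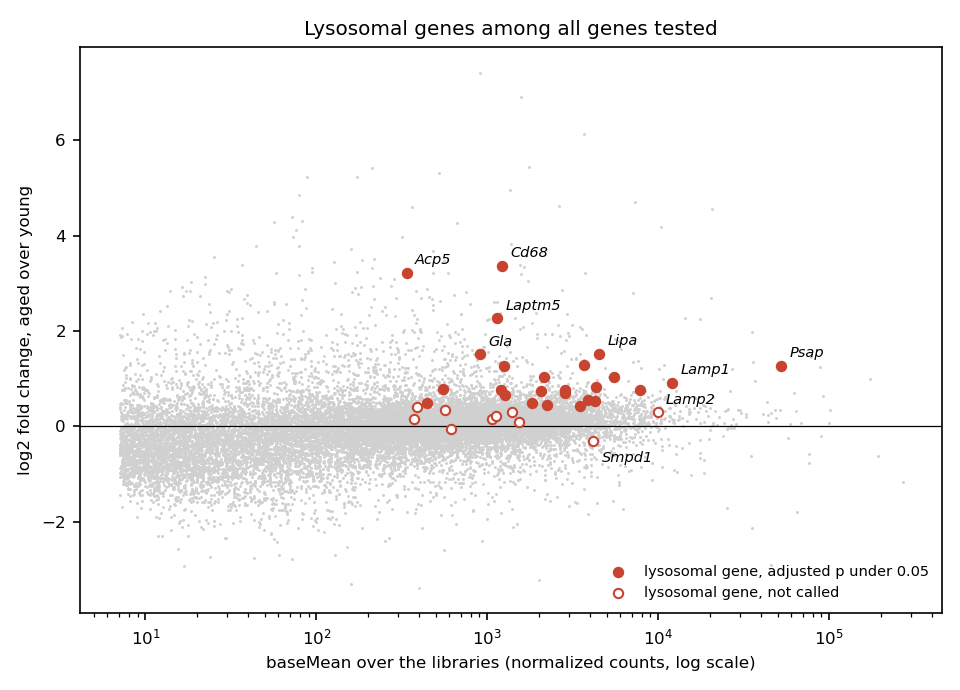
Log2 fold change in aged over young tissue (y axis) against baseMean in normalized counts (x axis, log scale) for all 18636 genes tested (grey) and the 35 lysosomal genes (red, filled where called). The lysosomal genes run from a baseMean of 338 for Acp5 to 52186 for Psap, and 33 of the 35 lie above 0.

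Promoters were examined because Tfeb and its relatives bind a short palindrome, CACGTG, in front of many lysosomal genes. RefSeq windows of 300 bases (GRCm38.p6), from 250 bases before to 50 after each start site, were found for 33 of the 35 genes. The motif TCACGTG, searched on both strands and containing CACGTG, occurred in 10 of the 33 (30.3%), against 1160 of 27025 genes with a window (4.29%). For CACGTG alone the numbers were again 10 of 33, against 8.09% of all genes. A 10-letter palindrome that contains TCACGTG occurred in 1 of 33 (3.03%), Cln3, against 100 of 27025 genes (0.37%). Of the 10 genes with TCACGTG, 6 were higher in aged tissue (Gla, Lamp1, Lgmn, Naglu, Sgsh and Gaa) and 4 were not called (Cln3, Arsa, Glb1 and Mcoln1), with a median log2 fold change of 0.59. Of the 23 without it, 17 were higher, with a median of 0.70. Among all 725 tested genes with TCACGTG, 112 (15.4%) were higher. A match is only a match of letters and shows no binding.

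The windows of the 4 genes with the motif and the lowest adjusted p are printed to show where it lies, 5′ to 3′ on the strand of the gene, with each TCACGTG or its reverse complement in capitals. They are Gla at chrX:134600956-134601255 (minus strand), Lamp1 at chr8:13158911-13159210 (plus strand), Lgmn at chr12:102439043-102439342 (minus strand, 1 of 2 start sites) and Naglu at chr11:101069844-101070143 (plus strand). Lamp1 holds 4 copies between 61 and 15 bases before its start site and Gla 2 copies, 227 and 194 bases before it, whereas Lgmn and Naglu hold 1 copy each, 49 and 73 bases before it.
Gla: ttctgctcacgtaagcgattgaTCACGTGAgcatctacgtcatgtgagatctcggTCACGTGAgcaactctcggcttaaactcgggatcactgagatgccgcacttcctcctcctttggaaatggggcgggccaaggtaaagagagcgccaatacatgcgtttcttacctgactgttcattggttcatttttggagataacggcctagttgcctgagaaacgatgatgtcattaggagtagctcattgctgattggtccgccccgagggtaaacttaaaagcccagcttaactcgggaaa
Lamp1: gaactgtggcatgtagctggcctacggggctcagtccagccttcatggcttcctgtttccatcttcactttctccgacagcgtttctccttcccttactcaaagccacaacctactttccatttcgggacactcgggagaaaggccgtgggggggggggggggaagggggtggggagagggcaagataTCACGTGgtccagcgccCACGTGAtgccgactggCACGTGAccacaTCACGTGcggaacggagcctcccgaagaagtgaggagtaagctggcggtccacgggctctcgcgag
Lgmn: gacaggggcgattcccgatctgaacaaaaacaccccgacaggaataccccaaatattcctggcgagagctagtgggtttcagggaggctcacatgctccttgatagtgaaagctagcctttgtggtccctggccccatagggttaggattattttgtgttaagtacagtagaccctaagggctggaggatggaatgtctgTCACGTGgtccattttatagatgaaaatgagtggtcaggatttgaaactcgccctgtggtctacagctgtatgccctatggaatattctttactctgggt
Naglu: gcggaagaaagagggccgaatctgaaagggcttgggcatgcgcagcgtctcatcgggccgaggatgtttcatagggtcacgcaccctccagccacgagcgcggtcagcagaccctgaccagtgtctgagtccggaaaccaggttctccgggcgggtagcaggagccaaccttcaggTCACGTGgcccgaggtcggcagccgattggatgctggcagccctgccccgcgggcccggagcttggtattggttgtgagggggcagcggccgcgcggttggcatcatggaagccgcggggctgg

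Cell type markers were compared in the same table, because a change in the make-up of a bulk tissue moves such values too: fewer or more cells of a type and less or more RNA per cell cannot be told apart here. Macrophage markers rose, with 10 of 13 tested genes higher, 1 lower and a median log2 fold change of 1.41. None of the 14 listed was at 0, the lowest having a baseMean of 266. Adgre1 (listed as Emr1) had 2.12 and Csf1r 0.37, and Cd163 was the marker that fell (-2.34). The summed implied level of the 13 tested markers was 14579 in young and 37596 in aged tissue, a ratio of 2.58. Lyz2, the lysozyme of myeloid cells, had no p-value but the highest level of the list, with 4.09 on the log2 scale (SE 0.17) and implied levels of 4274 and 72867. It is 1 of 160 genes with a fold change but no p-value, so its change was not tested. Whether 1 library sets its level cannot be seen here, which also limits sums that include Lyz2. With Lyz2 the sums were 18853 and 110463, a ratio of 5.86. Mast cell markers were higher in 7 of 7 (Cpa3 2.32, Mcpt4 2.07), with a sum of 419 in young and 2216 in aged tissue. T and NK cell markers were higher in 7 of 8 (Cd3e 1.09, not called, and Cd3d 2.10), with sums of 101 and 956, a ratio of 9.44. Il7r, which encodes an interleukin receptor chain, made up most of the aged sum (28.7 in young and 696 in aged tissue), and without it the sums were 72.6 and 259.8, a ratio of 3.58. RPE markers were higher in 2 of 9, with a median of 0.33. Rpe65, with a baseMean of 43745, had 0.10 (SE 0.16, adjusted p 0.724), and the markers called higher were Rgr, with a baseMean of 92190 and 0.63 (adjusted p 0.00416), and Best1, with 69.8 and 0.68 (adjusted p 0.0409). All 9 values were positive. Of the melanocyte markers 0 of 8 were higher and 2 lower, Tyr (-0.59) and Ednrb (-0.41), while Sox10 (0.11) and Mlana (0.19) were not called and the median was -0.22. Of the endothelial markers 1 of 7 was higher, Vwf (0.69), and 1 lower, Tek (-0.44), while Cdh5 (-0.30) and Plvap (0.53) were not called, Pecam1 (-0.19) had no p-value and the median was -0.17. Of the fibroblast markers 1 of 7 was higher and 3 were lower. The fibroblast markers that fell were the collagens Col1a1 (-2.91), Col1a2 (-1.80) and Col3a1 (-2.14), whereas Dcn rose (0.51), Lum (0.26), Pdgfra (0.21) and Thy1 (0.24) were not called, and the median was 0.21. Rod photoreceptor markers gave 0 calls of 8 (Gnat1 0.13, SE 0.42), also 0 at an unadjusted p under 0.05. Their SE had a median of 0.41. The part of any cell type in the lysosomal changes was not tested.

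Genes of the lysosomal membrane came first. Of 8, 5 were higher, and the group spanned the whole range from no detectable change to the largest rise. Cd68, a heavily glycosylated protein of macrophage late endosomes and lysosomes, went from an implied 215 to 2232 normalized counts, or 3.37 on the log2 scale (SE 0.14, adjusted p 5.7e-130, interval 3.10 to 3.64). Laptm5, a lysosomal protein of blood-derived cells, went from 395 to 1897, which is 2.26 on the log2 scale (SE 0.18, adjusted p 1.64e-32, interval 1.90 to 2.62). The macrophage markers tested ran from -2.34 to 3.05, with a median of 1.41. Cd68 ranked 36th among the 18636 genes by size of rise and Laptm5 129th.

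The structural proteins of the membrane moved less. Lamp1 and Lamp2 are the paired glycoproteins that line the inner face of the lysosomal membrane. Lamp1, on chromosome 8 at 13159161 to 13175338 (plus strand, GRCm38), went from 8387 to 15844, a log2 difference of 0.92 (SE 0.13, adjusted p 3.36e-10, interval 0.65 to 1.18). Lamp2, on the X chromosome at 38401357 to 38456454 (minus strand), stood at 8918 and 10929, a log2 difference of 0.29 (SE 0.14, adjusted p 0.126, interval 0.02 to 0.57) that missed the threshold. The intervals of their log2 differences did not overlap. Per kilobase of exon, the baseMean of Lamp1 was 4529 and that of Lamp2 was 1039. Cd63, a tetraspanin of late endosomes, lysosomes and melanosomes, rose by 0.70 (SE 0.16, adjusted p 0.00014, interval 0.39 to 1.01), from 2156 to 3506. Scarb2, an integral protein of the lysosomal membrane, rose by 0.54 (SE 0.13, adjusted p 0.000333, interval 0.29 to 0.80), from 3167 to 4618.

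The remaining membrane genes were not called. Cln3, mutated in a juvenile form of neuronal ceroid lipofuscinosis, had 0.40 (SE 0.18, adjusted p 0.101, interval 0.04 to 0.76). Mcoln1, the calcium channel TRPML1 of the lysosomal membrane, had -0.06 (SE 0.15, adjusted p 0.835, interval -0.34 to 0.23), with 627 normalized counts in young and 604 in aged tissue. Centred on RPE markers it had -0.38 and was called lower (adjusted p 0.0258). Without centring, its interval lies below the 0.65 at which that of Lamp1 begins.

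Genes for the handling of cholesterol and lipid esters were all called, 3 of 3. Lipa, the acid lipase that frees cholesterol and fatty acids from their esters, lies on chromosome 19 at 34492318 to 34527474 and rose by 1.53 (SE 0.16, adjusted p 1.68e-20, interval 1.22 to 1.83), from 2316 to 6675 normalized counts. Npc2, the soluble protein that takes up the freed cholesterol, rose by 0.76 (SE 0.16, adjusted p 2.71e-05, interval 0.45 to 1.07), from 5784 to 9794. Npc1, the membrane protein to which Npc2 hands it over, rose by 1.03 (SE 0.13, adjusted p 1.15e-13, interval 0.77 to 1.28), from 1411 to 2874. The 3 genes that act in sequence on this route therefore all stood higher in aged tissue, Lipa most.

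Sphingolipid breakdown was divided, with 4 of 8 genes higher and the other 4, between -0.30 and 0.34, not called. Psap, the precursor of the saposins that present lipids to several hydrolases, had the highest baseMean of the 35 genes, 52186. It lies on chromosome 10 at 60277627 to 60302597 and went from 30532 to 73840 normalized counts, a log2 difference of 1.27 (SE 0.15, adjusted p 1.99e-16, interval 0.99 to 1.56). Per kilobase of exon, its baseMean of 19018 was above the 4529 of Lamp1 and the 2776 of Hexa, the next in order among the 35. Gla, the alpha-galactosidase that trims globotriaosylceramide and is deficient in Fabry disease, rose by 1.51 (SE 0.16, adjusted p 8e-20, interval 1.20 to 1.82), from 473 to 1345. Hexa, the alpha subunit of beta-hexosaminidase, rose by 1.04 (SE 0.15, adjusted p 6.16e-11, interval 0.75 to 1.33), from 3622 to 7461. Asah1, the acid ceramidase, rose by 0.52 (SE 0.15, adjusted p 0.00532, interval 0.22 to 0.82), from 3517 to 5055.

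The other sphingolipid genes did not reach the threshold. Glb1 encodes the lysosomal beta-galactosidase, whose activity is read out by the senescence-associated beta-galactosidase stain. It stood at 1009 normalized counts in young and 1123 in aged tissue, a log2 difference of 0.16 (SE 0.15, adjusted p 0.501, interval -0.13 to 0.45), so that a rise above 0.45 lies outside its interval. Neu1, the sialidase that works in 1 complex with Glb1, had 0.21 (SE 0.15, adjusted p 0.334, interval -0.08 to 0.51). Arsa, the sulfatase of sulfatides, had 0.34 (SE 0.16, adjusted p 0.111). Smpd1, the acid sphingomyelinase, was the gene with the most negative value, at -0.30 (SE 0.14, adjusted p 0.0983, interval -0.57 to -0.03), from 4608 to 3742. Centred on genes with a baseMean of at least 100 it had -0.37 and was called lower (adjusted p 0.0364). Centred on RPE markers it had -0.63 (adjusted p 4.24e-05).

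For glycosaminoglycans, the long sugar chains of proteoglycans, 5 of 6 genes were higher. Gusb, the beta-glucuronidase on chromosome 5 at 129989011 to 130003049, led with 1.26 (SE 0.16, adjusted p 4.41e-14, interval 0.96 to 1.57), from 737 to 1767 normalized counts. Sgsh, the heparan sulfamidase, rose by 0.78 (SE 0.18, adjusted p 0.000271, interval 0.42 to 1.14), from 404 to 695. Naglu, which removes N-acetylglucosamine from heparan sulfate, rose by 0.76 (SE 0.15, adjusted p 7.18e-06, interval 0.47 to 1.05), from 893 to 1511. Rises under 0.5 came from Arsb, the sulfatase of dermatan sulfate, and Ids, the iduronate sulfatase. Arsb went from 371 to 522, a rise of 0.49 (SE 0.16, adjusted p 0.0138, interval 0.18 to 0.81), and Ids, the most abundant of the group by baseMean, from 1534 to 2140, a rise of 0.48 (SE 0.16, adjusted p 0.015, interval 0.17 to 0.79). Idua, the iduronidase, had 0.15 (SE 0.17, adjusted p 0.58, interval -0.18 to 0.47).

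All 4 genes for glycogen and glycoprotein breakdown were higher. Man2b1, the acid alpha-mannosidase on chromosome 8 at 85083270 to 85098282, rose by 1.29 (SE 0.15, adjusted p 1.19e-16, interval 1.00 to 1.58), from 2133 to 5208 normalized counts. Fuca1, the alpha-fucosidase, rose by 0.76 (SE 0.17, adjusted p 0.000126, interval 0.42 to 1.09), from 2128 to 3596. Manba, the beta-mannosidase, rose by 0.65 (SE 0.15, adjusted p 0.000329, interval 0.35 to 0.96), from 988 to 1552. Gaa, the acid alpha-glucosidase that digests glycogen, had the smallest rise of the 25 called genes, 0.43 (SE 0.14, adjusted p 0.0176, interval 0.15 to 0.71), from 2953 to 3979. Its call was lost after centring on genes with a baseMean of at least 100 (adjusted p 0.0511) and on RPE markers (adjusted p 0.583).

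Enzymes that act on proteins followed, with 2 of 3 higher. Lgmn, the asparaginyl endopeptidase legumain on chromosome 12 at 102394084 to 102439813, rose by 0.83 (SE 0.13, adjusted p 1.11e-08, interval 0.57 to 1.08), from 3100 to 5493 normalized counts. Ppt1, which strips palmitate from proteins, rose by 0.45 (SE 0.12, adjusted p 0.00223, interval 0.21 to 0.69), from 1902 to 2598. Tpp1, a tripeptidyl peptidase, had 0.10 (SE 0.15, adjusted p 0.695, interval -0.20 to 0.40).

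The acid phosphatases behaved unlike each other. Acp5, the tartrate-resistant acid phosphatase known from osteoclasts and activated macrophages, had the lowest baseMean of the 35 genes and went from 65.3 to 610 normalized counts, a log2 difference of 3.23 (SE 0.20, adjusted p 4.08e-56, interval 2.83 to 3.62). It lies on chromosome 9 at 22126727 to 22135711. Acp2, the widely expressed lysosomal acid phosphatase, stood at 1244 and 1528, a log2 difference of 0.30 (SE 0.12, adjusted p 0.0661, interval 0.06 to 0.54). The interval of Acp5 lies wholly above that of Acp2.

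Progranulin and the transcription factor Tfeb act on the compartment as a whole. Grn, which encodes progranulin, a secreted protein that is delivered to lysosomes and cut into granulins, rose by 0.74 (SE 0.18, adjusted p 0.00074, interval 0.38 to 1.10), from 1544 to 2573 normalized counts. Tfeb, listed as Tcfeb, had 0.10 (SE 0.15, adjusted p 0.669, interval -0.18 to 0.39), with 562 in young and 604 in aged tissue. The level of an mRNA does not show where the protein lies in the cell, which is how Tfeb is mainly controlled.

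**Figure D3:**
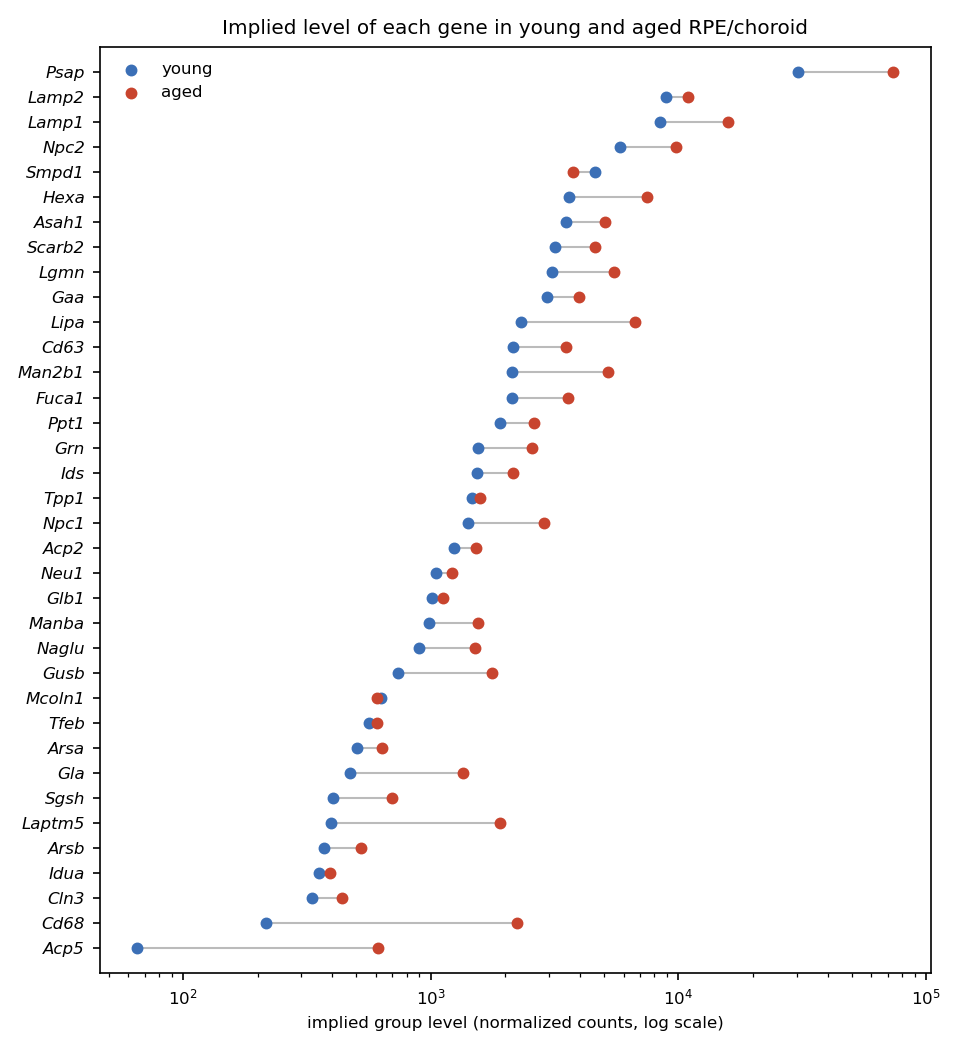
Implied level of each lysosomal gene, Tfeb included, in young (blue) and aged (red) RPE/choroid, in normalized counts on a log scale, ordered by the young level. Levels of different genes are not divided by length. Cd68 and Acp5, with 215 and 65.3 the lowest in young tissue, have the longest lines, and Psap the highest level at both ages.

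The same values were arranged by breakdown route, joined with genes from the other lysosomal lists. The routes were put together after the values had been seen. For heparan sulfate, 4 of the 6 enzymes considered were higher. The removal of sulfate from iduronate by Ids, of sulfate from glucosamine by Sgsh, of N-acetylglucosamine by Naglu and of glucuronate by Gusb all stood higher in mRNA. Idua and Hgsnat, the membrane acetyltransferase, were not called, the latter with 0.31 (SE 0.13, adjusted p 0.069).

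For gangliosides, 3 of the 5 genes considered were higher, and they include the step from GM2 to GM3. Hexa and the activator Gm2a (0.59, SE 0.12, adjusted p 3.79e-05) both rose. Before and after that step, Glb1 and Neu1 were not called, whereas Asah1 at the end of the route was higher. Ctsa, the cathepsin that holds the complex with Glb1 and Neu1, rose by 0.71 (SE 0.12, adjusted p 1.74e-07). Genes mutated in neuronal ceroid lipofuscinosis, a group of storage diseases with retinal degeneration, were higher in 4 of the 8 considered, namely Ppt1, Grn, Cln8 (0.91) and Ctsd (1.45). Tpp1, Cln3, Cln6 (0.32) and Mfsd8 (0.07) were not called.

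**Figure D4:**
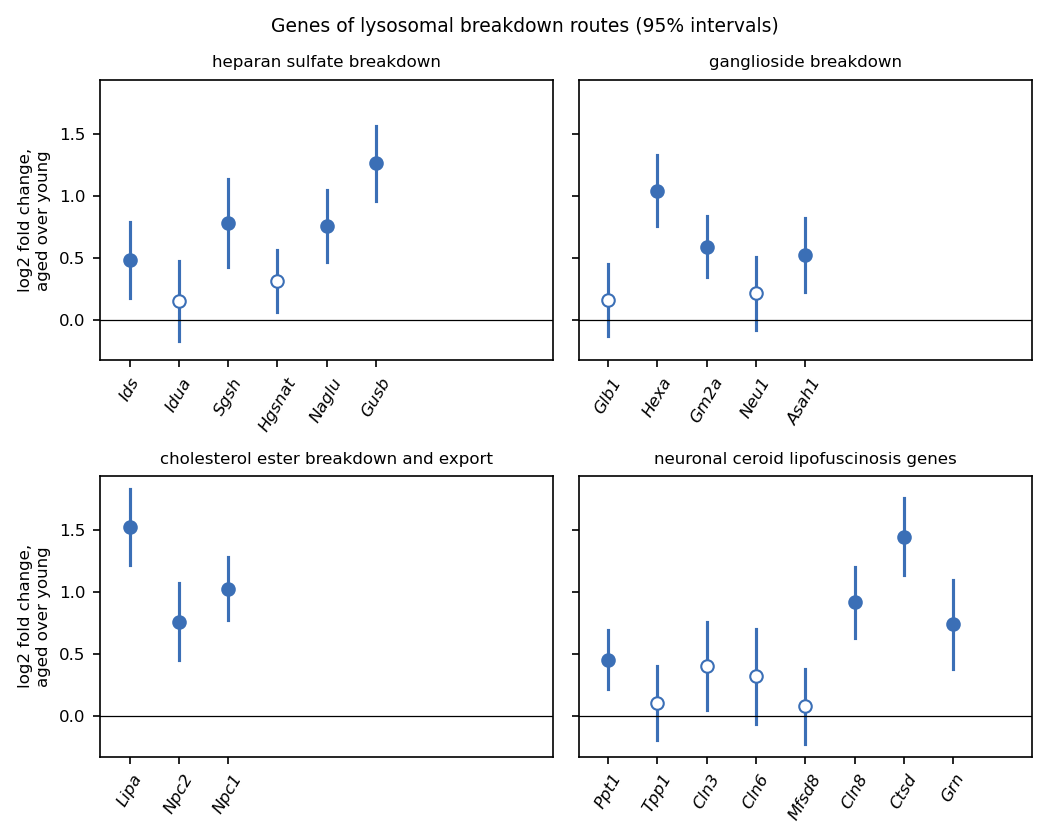
Log2 fold change in aged over young tissue (y axis, bars for 95% intervals) of genes of 4 lysosomal routes or disease groups, filled where the adjusted p is under 0.05. In the ganglioside panel Hexa and Gm2a lie above Glb1 and Neu1, and in the cholesterol panel all 3 genes are filled.

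Other genes of the lysosome were taken from lists that share no gene with the 35. Of 121 tested, 49 were higher and 1 was lower, with a median log2 fold change of 0.32, beside 11.3% higher and 9.92% lower among all genes tested and a median of 0.33 for the RPE markers. Centred on RPE markers, 28 were higher and 10 lower, beside 5.06% higher and 34.9% lower among all genes tested under the same centring. Of further hydrolases and activators, 11 of 21 were higher and 0 lower, among them the phospholipase Pla2g15 (1.24) and the galactosylceramidase Galc (1.09). Of further membrane proteins, 9 of 24 were higher and 0 lower, led by the phagocyte metal transporter Slc11a1 (2.61), the peptide transporter Slc15a3 (2.50) and Gpnmb (1.35), a glycoprotein of melanosomes and phagocytes. Of sorting and biogenesis genes, 12 of 22 were higher and 0 lower, led by Cln8 (0.91), Nagpa (0.90) and Plekhm1 (0.76). Both receptors for mannose 6-phosphate, the tag that routes hydrolases to the lysosome, were higher, M6pr by 0.56 (SE 0.13) and Igf2r by 0.40 (SE 0.13).

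The cathepsin list, which also holds their inhibitor Cst3 (cystatin C, 0.23, not called), was higher in 7 of 14 and lower in 0, with a median of 0.77. Without Cst3 it was 7 of 13, with a median of 0.83. The largest values were those of Ctss (4.56), Ctsb (1.98) and Ctsz (1.63). The proton pump had 6 of 21 higher, 0 lower and a median of 0.26. Its largest rise, 6.90 for the subunit Atp6v0d2, stood far from the next, 0.88 for Tcirg1 and 0.59 for Atp6v1c1. Among transcription factors and nutrient-sensing genes, 4 of 19 were higher, led by Fnip2 (1.59), Tfec (1.42) and Rragc (0.93), and 1 was lower, Zkscan3 (-0.56, SE 0.16, adjusted p 0.00443), described as a repressor of lysosomal genes. Tfe3, a relative of Tfeb, had 0.31 (SE 0.17, adjusted p 0.208), and Mitf had -0.22 without a p-value. In the 5 of these 6 lists with 0 lower genes, the DESeq2 table held no gene that was lower at an unadjusted p under 0.05.

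**Figure D5:**
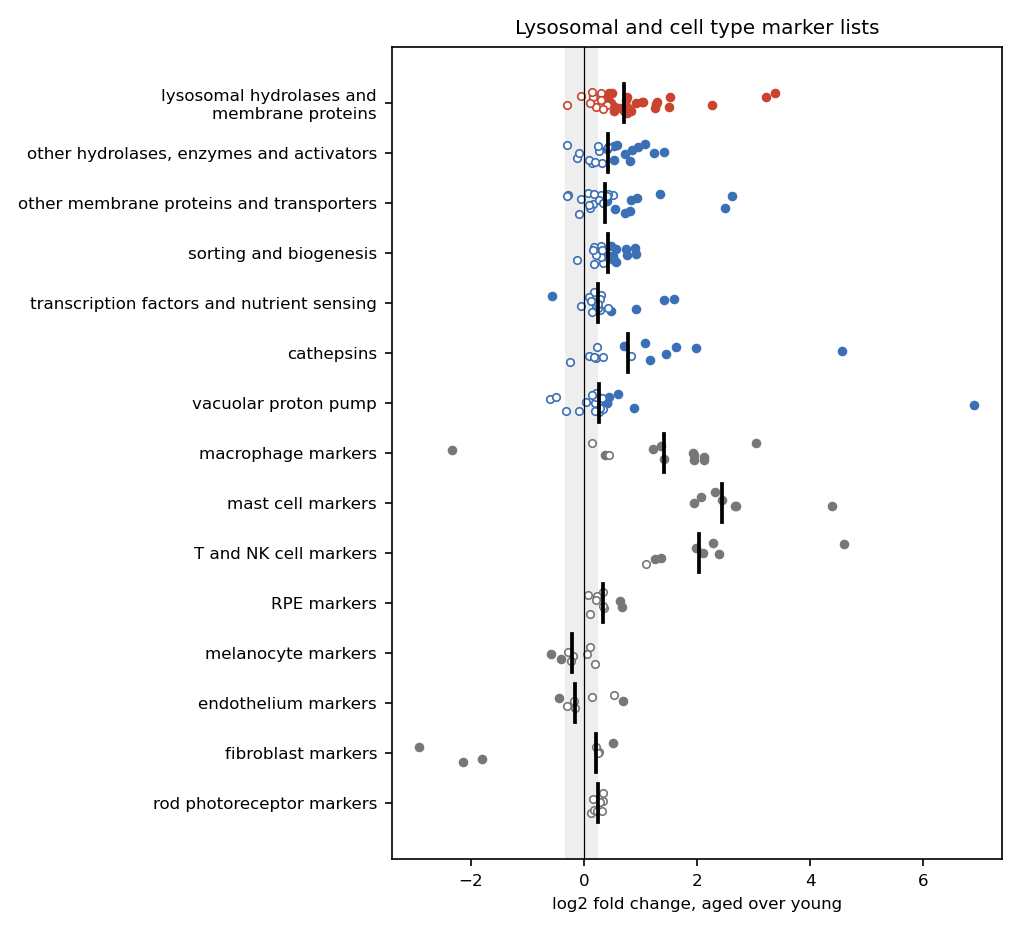
Log2 fold change in aged over young tissue (x axis) of every tested gene of the lysosomal lists (red and blue) and of the cell type markers (grey), filled where the adjusted p is under 0.05, with a black bar at each median. The cathepsin list includes cystatin C. The grey band holds the middle 50% of all genes tested. Medians of the lysosomal lists run from 0.24 to 0.77, and those of the macrophage, mast cell and T and NK cell markers from 1.41 to 2.44.

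Neighbouring genes could share reads with a few members. Exons of 5 genes overlap an opposite-strand gene over 10% or more of their length in GENCODE M21, namely Arsb (39.9%), Sgsh (21.6%), Arsa (18.7%), Hexa (12.8%) and Acp2 (12.6%). The library kit keeps the strand, but the strand setting of the quantification is not given in the sources used here, so these 5 values are less certain than the rest. Glb1 shares 5.49% of its exonic bases with Tmppe on the same strand, which strand information would not separate, so its value carries the same doubt.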

How the data were processed

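RNA from RPE/choroid of 3 young and 3 aged mice was rRNA-depleted and made into stranded libraries without poly(A) selection. The authors trimmed reads with BBDuk, mapped them with STAR to Ensembl transcripts of GRCm38, quantified them with Sailfish and tested with DESeq2; the submitters' processing notes name GRCm38, STAR and DESeq2. The table analysed here holds, per gene, a mean normalized signal (baseMean), a log2 fold change with its SE, a Wald score, and a p-value with its adjusted form, all deposited by the authors. These columns are the authors' own comparison. Of its columns 0 belong to a single library, so depth, SDs and refits per library were not worked out here. The sequencing reads were not analysed, and the deposited values are described as they stand, with intervals added. The direction of the deposited sign (young over aged) was inferred from the study's own split of calls, and it was reversed here, so every direction depends on it. Fold changes were probably shrunken by the authors' tool, because the SE reached at most 0.46 among genes tested, down to a baseMean of 7.07. Shrinkage would understate changes of low genes, and the implied levels and intervals drawn from them carry the same limit.

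The members and lists were chosen with earlier results of these data known. Symbols without a line were looked up through RefSeq synonyms (1 member and 8 list genes). Every member is named, with full statistics for called members and the most abundant of each role; of other lysosomal lists, the 3 largest called rises and 2 largest called falls with a baseMean of at least 30 are named; of marker lists, the first 2 genes. A few genes that this rule or the routes would name are not reported here, though the counts over whole lists include them. Others named (M6pr, Igf2r, Tfe3, Mitf, Cst3, marker genes past the first 2 and genes of the routes) were chosen after the values were seen. Wald p and Benjamini-Hochberg adjustment were recomputed for the alternatives with scipy 1.17.1 and numpy 2.4.6 in Python 3.11.15; recomputed p-values and adjusted p-values matched the deposited ones to within 0.449% and 0.572%, and the steps were tested on simulated data. Positions and exon lengths are from GENCODE M21 (GRCm38). Alternatives were an adjusted p under 0.01, a fold change of 1 log2 unit or more, no filter on low values, a baseMean of at least 100, centring on genes with a baseMean of at least 100, p-values rebuilt from the Wald score where none was given and, chosen after seeing the data, centring on RPE markers.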

Additional observations from a re-analysis of the deposited data

How the results depend on the processing

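No paired analysis was possible because values of single libraries were not analysed here, and fits that leave out 1 library were not run for the same reason. The count of 25 higher lysosomal genes was 22 under an adjusted p below 0.01, 25 with either filter on low values and with p-values rebuilt from the Wald score, and 24 after centring on abundant genes. A minimum change of 1 log2 unit, stricter by construction, left 10 lysosomal genes, 15 other lysosomal genes higher (against 49) and 0 lower (against 1). Centring on abundant genes called 1 lysosomal gene lower, Smpd1. Centring on RPE markers, chosen after seeing the data, shifts all genes by 0.33 and turns the split over all genes from 2100 higher and 1849 lower into 943 and 6507. It left 17 lysosomal genes higher and 2 lower (Smpd1 and Mcoln1), 28 other lysosomal genes higher and 10 lower, and a median over the lysosomal genes of 0.37. The direction of 6 uncalled genes turned under it, to -0.0346 for Lamp2, -0.173 for Glb1, -0.115 for Neu1, -0.18 for Idua, -0.225 for Tpp1 and -0.0308 for Acp2, and 8 calls were lost. The count of higher macrophage markers, 10, lay between 9 and 11 under the alternatives run. The 11 includes Lyz2, through a p-value rebuilt from its Wald score. With 3 mice per group and a median SE of 0.15, the smallest lysosomal change called was 0.43.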
